A study of Mus musculus with 15 samples.

Results

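Colon adenomas of mice given sulindac plus atorvastatin were compared across the whole array with the flat colon epithelium of tumor-bearing mice given atorvastatin. The comparison takes every array labelled with either group, 4 of each, which is 8 of the 15 arrays in the series. Near-identical arrays of a group were averaged, which left 2 treated adenoma samples and 3 epithelium samples, 5 of the 10 samples of the series. All mice were male Apc+/Min-FCCC animals on a C57BL/6J background, which carry a germline Apc Min allele in every cell, and were examined by colonoscopy at 6 to 8 weeks of age. The treated adenomas came from mice fed chow with 300 ppm sulindac and 100 ppm atorvastatin for 7 days, and the epithelium from mice fed 100 ppm atorvastatin alone for 7 days. Atorvastatin was therefore shared, while tissue (adenoma or flat mucosa) and sulindac changed together and cannot be told apart. The drug given to the tumor-bearing epithelium is taken from the sample names and descriptions, since the characteristics of those 4 arrays give only the cell type. The other groups of the series, untreated adenomas (3 arrays) and tumor-free epithelium on atorvastatin (4 arrays), entered the shared estimate of the spread.

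Each array measured 10 ng of RNA from laser-microdissected cells after 2 rounds of linear amplification, on single-colour Agilent whole mouse genome arrays. Between 56.5% and 75.5% of the probes of an array were well above background, and the number of arrays limits the precision. In 6 pairs of arrays of the same group the log2 signals differed with an SD of 0.0735 to 0.145, below the 0.188 to 0.218 expected from spot noise, whereas the 15 other pairs within a group differed with an SD of 0.569 to 1.09. Treated arrays 2, 3 and 4 were such a set and count as treated sample 2, next to treated sample 1. Epithelium arrays 1 and 3 count as 1 sample, next to epithelium samples 2 and 4. Array 2 of the tumor-bearing epithelium was also near-identical to array 2 of the tumor-free epithelium (SD 0.147 against a noise of 0.178), although the labels put them in different groups. Without both of those arrays 1595 genes were called, in place of 2323. The labels describe biological replicates but name no animals, so p-values measure the spread between these samples, which may in part be technical.

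The colon epithelium renews itself from stem cells at the crypt base, where Wnt signalling keeps beta-catenin active and cells divide. As cells move up they become absorptive colonocytes, which take up salt, water and butyrate, or secretory goblet, enteroendocrine and tuft cells. Apc belongs to the complex that destroys beta-catenin, and its loss starts most intestinal adenomas. Sulindac inhibits the cyclooxygenases that make prostaglandins, and atorvastatin, a statin, inhibits cholesterol synthesis.

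Levels are given on a log2 scale relative to the 75th percentile of each array, which is 0, first for treated adenoma samples 1 and 2 and then for epithelium samples 1 (the mean of arrays 1 and 3), 2 and 4. The label of epithelial tissue was checked first. Epcam, an adhesion molecule of all epithelia, lay at 5.72 and 5.30 in the adenoma samples and at 5.74, 5.91 and 4.81 in the epithelium samples. Cdh1, the E-cadherin gene, lay at 5.06 and 4.87 against 5.25, 5.33 and 4.42. The groups overlapped for both genes, with log2 differences of 0.02 (SE 0.46) for Epcam and -0.04 (SE 0.42) for Cdh1, and either sign changed under other settings. Of the 14 pan-epithelial genes only Epcam had a log2 difference above 0. The median was -0.83 and ranged from -1.14 to -0.35 over the alternative settings. Only the intestinal factor Cdx2 was called, a fall, while without epithelium sample 4 there were 3 falls and without treated sample 1 none. The summed level of the list was 8.80 to 9.48 in the adenoma and 9.17 to 9.92 in the epithelium.

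Of 27790 genes and unnamed transcripts on the array, 17026 were tested, those with a signal well above background throughout the arrays of the adenoma group, the epithelium group or both. limma called 2323 of them at a Benjamini-Hochberg adjusted p under 0.05, or 13.6%. In treated adenoma 1123 were higher (6.6%) and 1200 were lower (7.05%). The median called rise was 8.51-fold and the median called fall 7.23-fold. A difference of more than 16-fold was reached by 326 rises and 310 falls, and the smallest called difference was 2.42-fold. The median over all tested genes was -0.08 on the log2 scale. Under quantile normalisation it was 0.07 and it was 0.04 in the authors' deposited values. Single genes and classes moved further with the scaling. Under quantile normalisation Cdh1 went from -0.04 to 0.44, and the median of cholesterol synthesis genes from -0.79 to -0.36. The samples of the groups did not overlap for any called gene, nor for 45.0% of all tested genes.

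**Figure D1:**
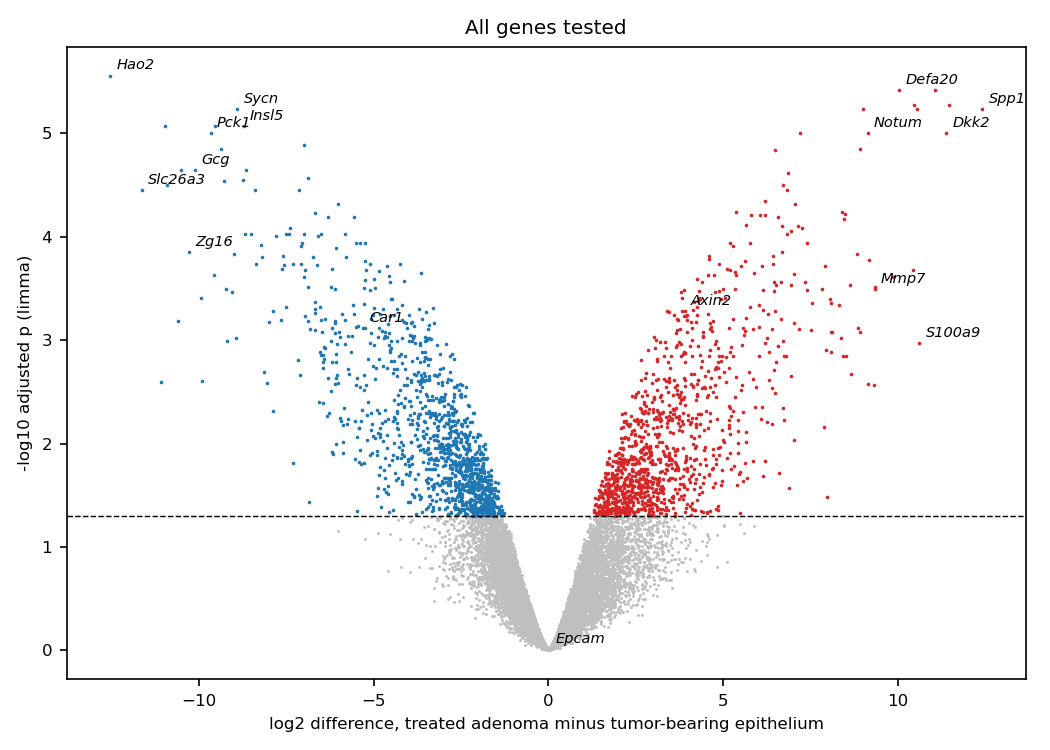
Each point is 1 of the 17026 genes tested, with the log2 difference of treated adenoma minus tumor-bearing epithelium on the horizontal axis and -log10 of limma's adjusted p on the vertical axis. The 1123 genes called higher and the 1200 called lower form wings of similar size on either side of 0.

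A gene is called measured on an array where its probe was well above background there. Where only some of the 4 arrays of a group measured it, their number is given, and its fold is set in part against signal near background. The highest rise among genes measured on at least 1 array of both groups was that of Spp1, encoding the secreted matricellular protein osteopontin. It lay at 5.27 and 5.01 in the adenoma samples and at -7.47, -6.99 and -7.40 in the epithelium samples, a 5503-fold difference (log2 difference 12.43, SE 0.64, adjusted p = 5.8e-06). Onecut2, a transcription factor gene, rose 1380-fold, and Adcy8, which encodes an adenylate cyclase, rose 936-fold. For these 3 genes 1 of 4 epithelium arrays measured the level. Prom2, a membrane glycoprotein gene of epithelial protrusions, rose 516-fold from -7.71, -8.34 and -7.28 to 1.00 and 1.47 (2 of 4 epithelium arrays).

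The deepest fall was that of Hao2, encoding a peroxisomal hydroxy acid oxidase. It lay at 4.75, 4.25 and 4.16 in the epithelium and was not well above background on any treated adenoma array (-8.28 and -8.03), which makes it at least 5972-fold lower there (adjusted p = 2.8e-06). Pck1, the gluconeogenic enzyme PEPCK, fell 813-fold from 5.06, 4.86 and 4.85 to -4.03 and -5.46 (measured on 3 of 4 treated arrays). Aadac, a lipid and drug esterase, fell 659-fold (2 of 4 treated arrays), and Sycn, encoding the secretory granule protein syncollin, fell 480-fold. The steroid-metabolising genes Akr1c14 and Hsd3b2 were dark on all treated adenoma arrays and, under the main settings, at least 731-fold and 743-fold lower. Over the alternative settings the log2 difference ranged from -9.71 to -6.90 for Akr1c14 and from -10.05 to -4.31 for Hsd3b2. Gsdmc2, a gasdermin gene, was at least 981-fold lower. In a dissected mixture of cells, fewer cells of a type and less RNA per cell cannot be told apart, and this holds for all differences given here.

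The genes were then read by class, in 59 lists described by the number of members called and by the median log2 difference. Of these medians, 37 kept their sign over 35 alternative settings and 22 took both signs. Over all tested genes 13.6% were called, and a count near that share is no result about a list.

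**Figure D2:**
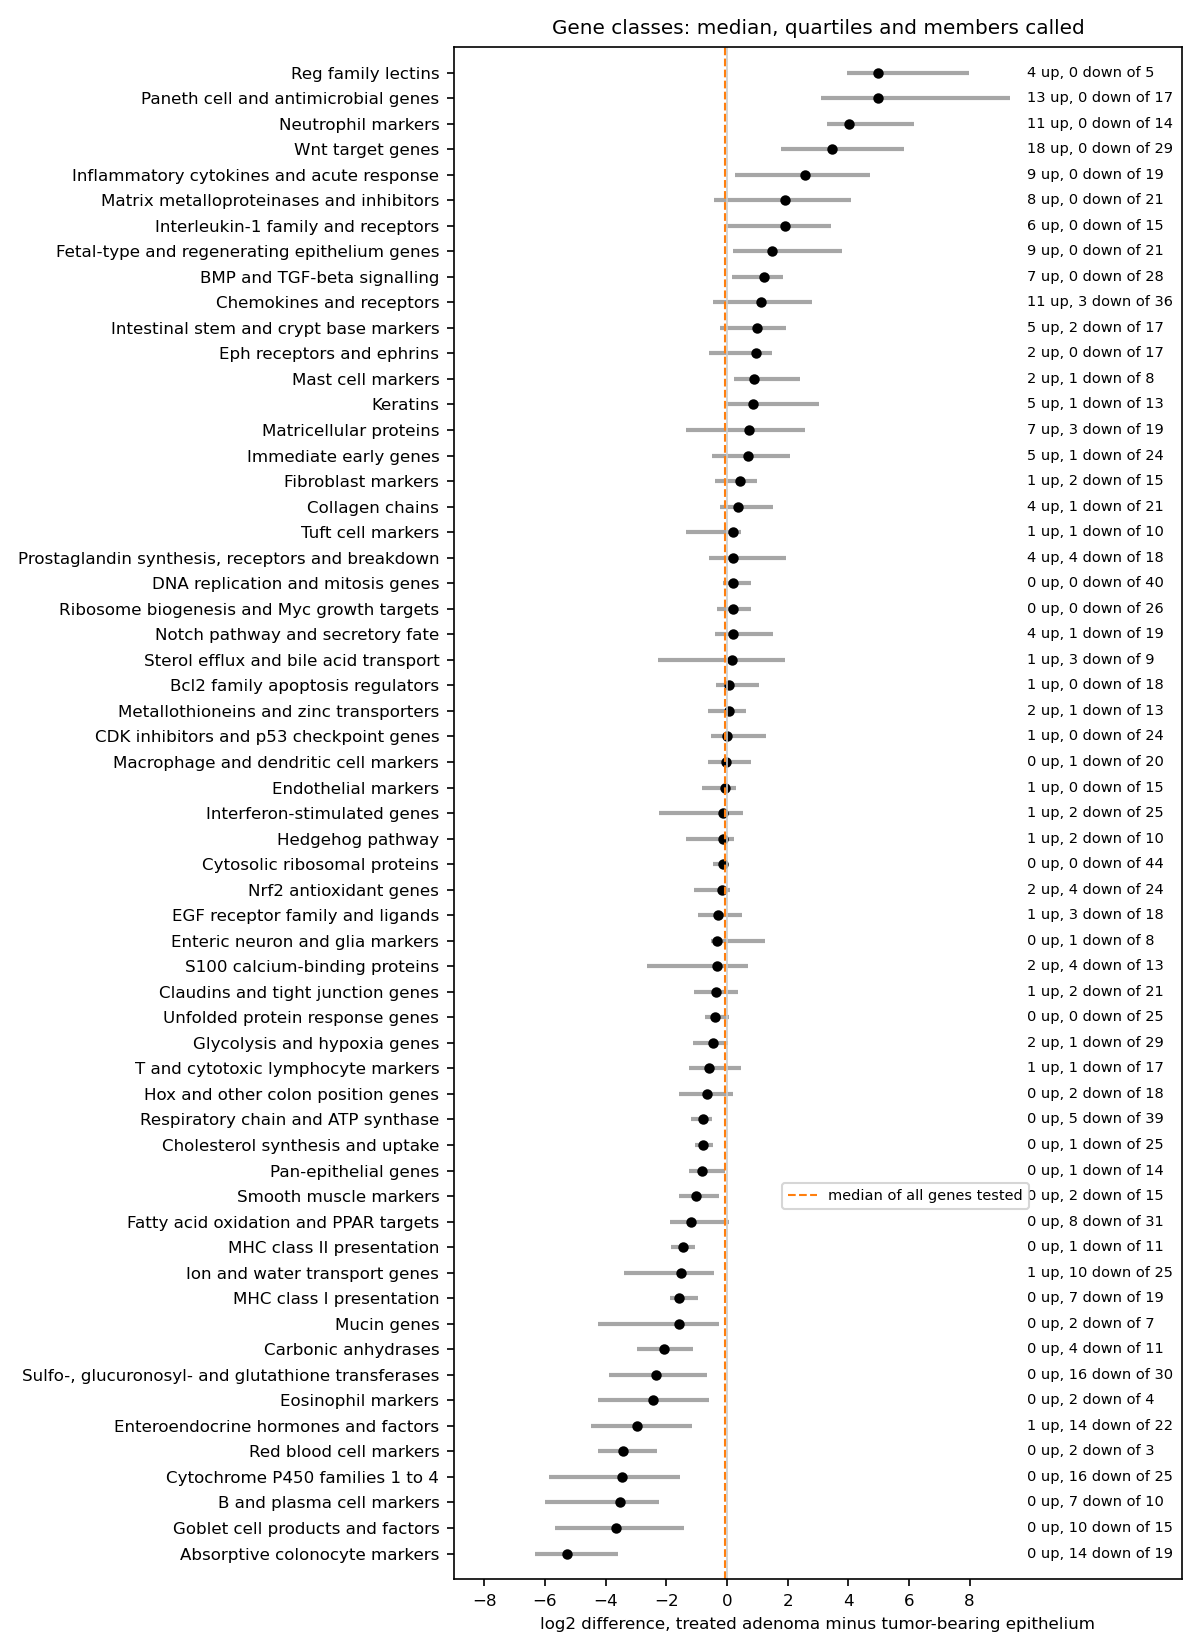
For each of the 59 gene lists the point marks the median and the bar the quartiles of the log2 difference, treated adenoma minus tumor-bearing epithelium, over the members tested, with the numbers called higher and lower beside them. Neutrophil, antimicrobial, Reg and Wnt target genes lie farthest to the right, and absorptive, goblet, plasma cell and cytochrome P450 genes farthest to the left.

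Wnt target genes were higher in the treated adenomas. Of 30 listed, 29 were tested and 18 rose, none fell, and the median difference was 3.45. Axin2, the feedback scaffold of the destruction complex, lay at 3.72 and 4.16 in the adenoma samples and at -0.55, 0.29 and 0.35 in the epithelium samples (log2 difference 3.91, SE 0.45, adjusted p = 0.00052). Lgr5, the R-spondin receptor of crypt base stem cells, lay at 4.57 and 4.79 against 0.53, -0.16 and 1.33, a 17.3-fold rise (adjusted p = 0.00077). Both adenoma samples were close to each other and, as for every gene called higher, above all epithelium samples. Secreted and feedback inhibitors of the pathway rose as well. Notum, a deacylase that inactivates Wnt ligands, lay at 2.48 and 3.82 against -6.37, -6.23 and -5.36, a 563-fold rise with 1 of 4 epithelium arrays measuring it (log2 difference 9.14, SE 0.52, adjusted p = 9.8e-06). Dkk2, a ligand of the LRP5 and LRP6 coreceptors, was not well above background on any epithelium array and was at least 2578-fold higher at 3.94 and 3.21. Wif1, which binds Wnt ligands, rose 272-fold (2 of 4 epithelium arrays) and Nkd1, an intracellular Dishevelled antagonist, 187-fold. Apcdd1, a membrane-bound inhibitor, lay at 5.08 and 5.22 against -0.27, -0.44 and -0.77.

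Among receptors, ligases and transcription factors of the pathway, Fzd10, Tnfrsf19 (Troy), Rnf43, Znrf3, Lef1, Tcf7, Sp5 and Prox1 rose as well, Fzd10 and Prox1 measured on 2 and Sp5 on 3 of the 4 epithelium arrays. Lef1 rose 57.7-fold and Tcf7 11.4-fold, while the receptor-degrading ligases Znrf3 and Rnf43 rose 10.9-fold and 3.85-fold. Myc, which the list also holds, lay at 2.72 and 3.15 against 1.73, 1.91 and 2.16 and was not called (log2 difference 1.00, SE 0.39, adjusted p = 0.12). The stem and crypt base list overlaps the Wnt list and gave 5 rises and 2 falls among 17 members tested, with a median of 1.00. Its falls were Msi1, an RNA-binding protein gene (log2 difference -3.39), and Aqp4, a water channel of the crypt base (-3.30). Without treated sample 1, or without treated sample 2, 3 members of this list rose and none fell. The Wnt list gave 14 rises without either of them.

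**Figure D3:**
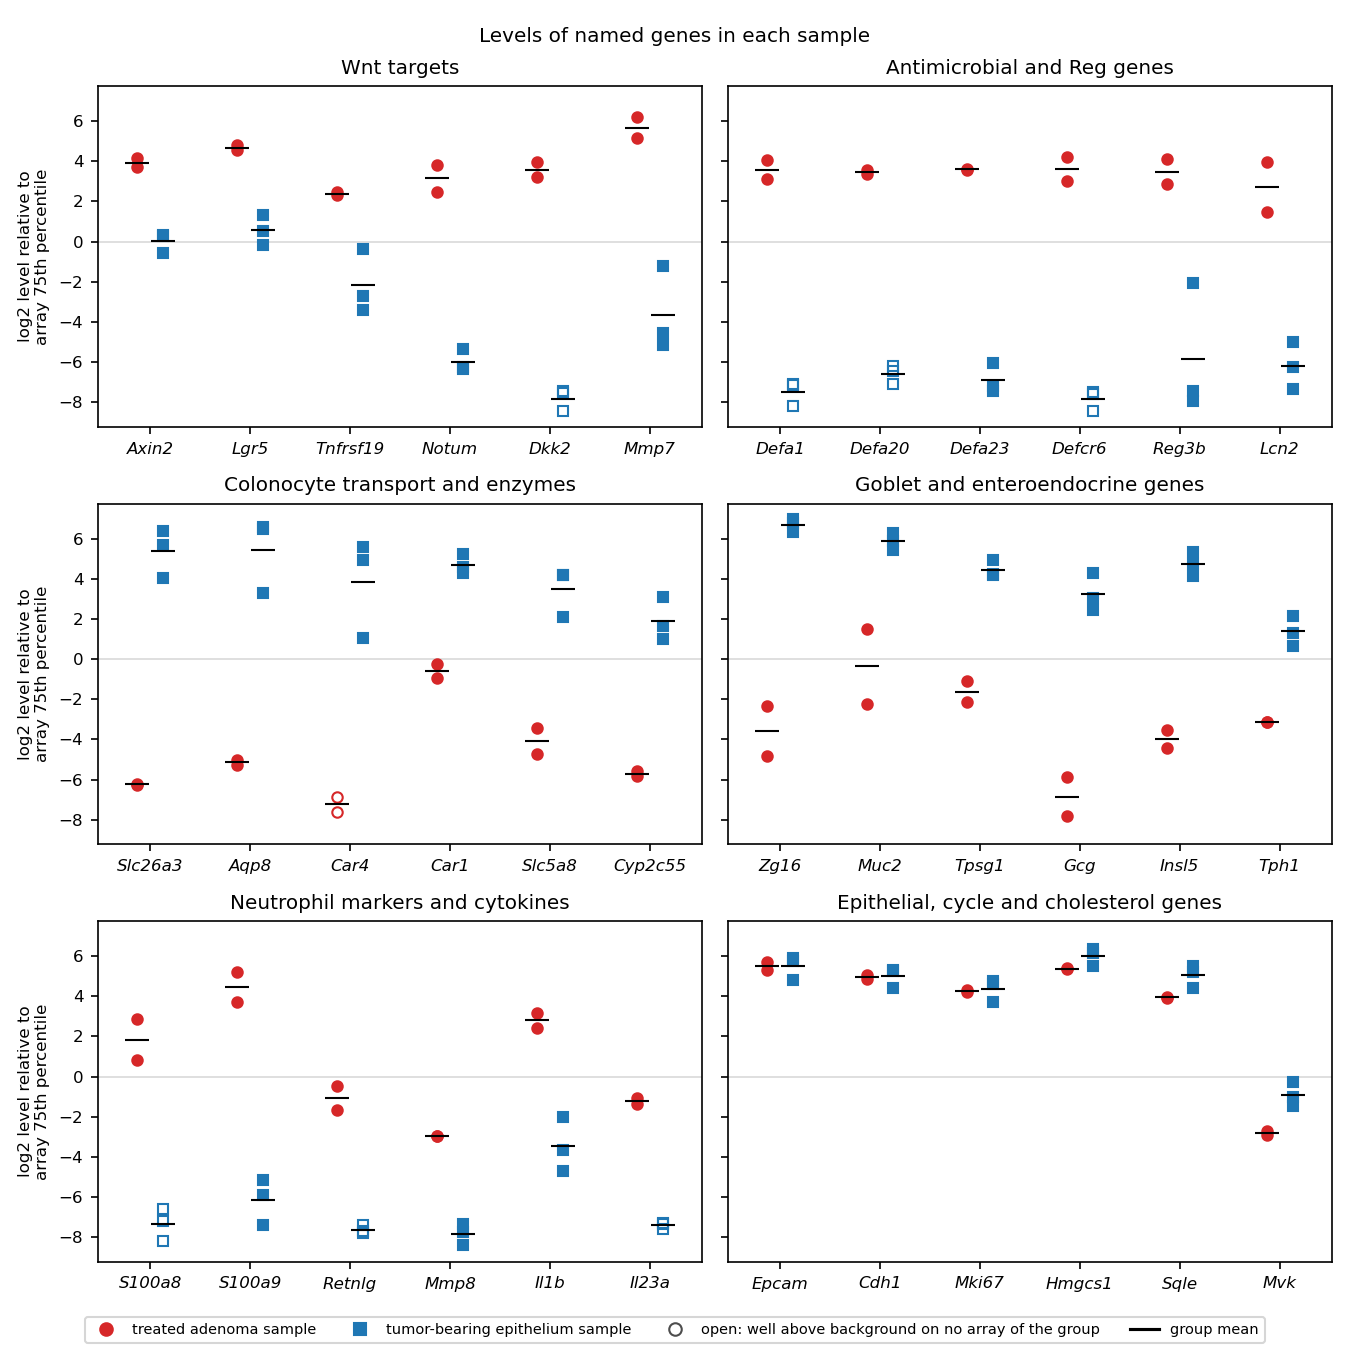
Points are levels (log2, relative to the array's 75th percentile) of 36 genes in 6 panels, with 1 symbol for each of the 2 treated adenoma and 3 epithelium samples; open symbols mark genes well above background on no array of the group. In the Wnt, antimicrobial and neutrophil panels the adenoma samples lie above the epithelium, in the colonocyte panel they lie under it, and Epcam, Cdh1 and Mki67 overlap.

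Genes of fetal-type and regenerating epithelium gave 9 rises and no fall among 21 tested, with a median of 1.48. Besides Spp1 they included Msln (mesothelin, 2 of 4 epithelium arrays), Il33 (an alarmin), Clu (clusterin, 13.7-fold), F3 (tissue factor), Ankrd1, Ccn1 and Ccn2. Ankrd1, Ccn1 and Ccn2 are known targets of YAP. Ankrd1 lay at -1.90 and -1.51 and was not well above background on any epithelium array, at least 66.0-fold lower there. Without either treated sample the list gave 5 rises, without epithelium sample 4 it gave 8 rises and 1 fall, and its median was 0.29 between the arrays of scan date 2 and 3.25 between those of scan date 4.

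Secreted antimicrobial genes were higher in the treated adenomas. Paneth cells, which make alpha-defensins and lysozyme at the base of small intestinal crypts, are normally rare or absent in mouse colon. Of 23 listed genes 19 were on the array, 17 were tested, 13 rose and none fell, with a median of 4.97. Members dark in the epithelium were tested through the adenoma alone and could hardly fall. With only probes well above background in both groups the median was 2.97, and as few as 5 members rose under an alternative setting. Defa1 lay at 3.09 and 4.08 in the adenoma samples and was not well above background on any epithelium array (-7.16, -8.17 and -7.12), at least 2151-fold higher (log2 difference 11.07, SE 0.49, adjusted p = 3.8e-06). Defa20 lay at 3.35 and 3.57 against -6.20, -6.46 and -7.08, at least 1054-fold higher. Defa23 lay at 3.55 and 3.63 against -6.05, -7.17 and -7.44, a 1429-fold rise against a group in which 1 of 4 arrays measured it. The probes named Defcr6 and Defcr4 by older symbols were at least 2691-fold and 1474-fold higher. Alpha-defensin genes are near-identical copies, so a probe may take up RNA of more than 1 of them, and which copy was transcribed was not tested.

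Other members of the class are single genes. Mmp7, the protease that activates mouse pro-defensins and is also a Wnt target, lay at 5.17 and 6.19 against -4.57, -5.17 and -1.24, a 649-fold rise. Lcn2, an iron-siderophore binding protein, lay at 1.47 and 3.95 against -7.36, -5.01 and -6.26, a 486-fold rise (1 of 4 epithelium arrays). Lyz1, the Paneth cell lysozyme, rose 12.7-fold, Pla2g2a, a bactericidal phospholipase, 31.4-fold, and Itln1, an intelectin, 23.4-fold. The adenoma samples were above all epithelium samples in each case, as for every gene called higher. The groups did not overlap for 45.0% of all tested genes. The Reg lectins, antimicrobial proteins induced by damage, gave 4 rises among 5 tested. With only probes well above background in both groups the median of this family was -0.015, and under an alternative setting 0 members rose. Reg3b lay at 2.85 and 4.12 against -7.47, -7.96 and -2.07, so that epithelium sample 4 stood above the other two (log2 difference 9.31, SE 1.46, adjusted p = 0.0027). Reg3g rose 253-fold, again with epithelium sample 4 the highest of its group, and Reg1 31.8-fold. Epithelium arrays measured Reg3b and Reg1 in 1 of 4 cases and Reg3g in 2. Reg3a was at least 14.8-fold higher. The Reg family gave 3 rises without treated sample 1 and 2 without treated sample 2.

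Promoters of Wnt targets and antimicrobial genes were searched for the motif of the Wnt effectors TCF and LEF, and some of those that held it are shown. Whether the motif bears on the rise of either class was not tested. The letters are from RefSeq's promoter table (GRCm38.p6, 250 bases before to 50 after each start, 32851 promoters). CTTTGAT, a TCF/LEF motif, was searched on both strands as 1 of 7 motifs, and the windows were picked after the matches were seen. It occurred in 3.73% of all promoters, in 3.16% of those of tested genes, in 5.78% of 692 promoters of higher genes and in 2.58% of 813 promoters of lower genes. Of 8 called antimicrobial genes with a promoter there 5 held it (Defa20, Defa21, Defa22, Defa23 and Mmp7), and of 12 called Wnt targets 3 did (Mmp7, Sp5 and Tnfrsf19). Among classes that fell, 2 of 14 called cytochrome P450 genes held it (Cyp2c29 and Cyp2c39), and 0 of 13 absorptive and 0 of 15 conjugating genes. Capitals mark the match, which reads ATCAAAG where it lies on the opposite strand.
Defa20, chr8:21509131-21509207, plus strand: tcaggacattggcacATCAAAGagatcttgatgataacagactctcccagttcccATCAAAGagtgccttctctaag
Defa21, chr8:21025418-21025494, plus strand: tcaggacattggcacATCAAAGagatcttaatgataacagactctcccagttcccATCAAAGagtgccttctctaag
Defa23, chr8:21054911-21054987, plus strand: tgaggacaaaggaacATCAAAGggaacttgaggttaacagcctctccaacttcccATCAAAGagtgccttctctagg
Sp5, chr2:70474804-70474840, plus strand: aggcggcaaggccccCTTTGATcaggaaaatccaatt
Tnfrsf19, chr14:61038168-61038204, minus strand: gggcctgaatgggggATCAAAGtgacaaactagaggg
The 3 defensin windows carry the motif at 2 places. Over these 77 bases Defa20 and Defa21 differed at 1 position, Defa21 and Defa22 at 0, and Defa20 and Defa23 at 12, so their matches are not independent. A match is a description of the letters and was not tested as a binding site.

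Absorptive colonocyte genes were lower in the treated adenomas, with 14 falls and no rise among 19 tested and a median of -5.29. Slc26a3, the chloride-bicarbonate exchanger of surface colonocytes, lay at -6.26 and -6.23 in the adenoma samples and at 5.70, 6.40 and 4.06 in the epithelium samples, a 3169-fold fall with 2 of 4 treated arrays measuring it (log2 difference -11.63, SE 0.83, adjusted p = 3.5e-05). Aqp8, a water channel, lay at -5.26 and -5.04 against 6.59, 6.48 and 3.31, a 1558-fold fall. Car4, a membrane-anchored carbonic anhydrase, was not well above background on any treated adenoma array (-7.61 and -6.88) and lay at 4.93, 5.57 and 1.05 in the epithelium. The group means differed 2187-fold (log2 difference -11.1, SE 1.72), which is not a lower limit. Between the arrays of scan date 4 the log2 difference was -7.55. Fabp2, an intestinal fatty acid binding protein, fell 490-fold. Krt20, a keratin of mature surface cells, lay at -1.51 and 2.46 against 6.53, 6.31 and 4.72, with a wide gap between the adenoma samples. Guca2a (guanylin) fell 9.67-fold and Cdhr5, a brush border cadherin, 52.5-fold. The list gave 9 falls without treated sample 1, and between 12 and 17 when any other sample was left out.

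The list of ion and water transporters, which shares Slc26a3 and Aqp8 with the colonocyte list, gave 10 falls and 1 rise among 25 tested. Slc5a8, the sodium-coupled butyrate transporter, lay at -3.45 and -4.73 against 4.17, 4.16 and 2.09, a 188-fold fall. The sulfate transporter Slc26a2, the anion channel Best2, the sodium-hydrogen exchanger Slc9a2 and the epithelial sodium channel subunit Scnn1a fell 33.4-fold, 25.5-fold, 10.9-fold and 10.4-fold. The exchanger Slc9a3 had the opposite sign, at 2.19 and 3.14 against 0.10, -3.57 and -0.59, but was not called (adjusted p = 0.083). The rise was that of the water channel Aqp3 (3.93-fold, 1 of 4 epithelium arrays), at levels of -4.46 and -3.66. The count of falls was 4 without either treated sample and 6 without epithelium sample 1. Carbonic anhydrases gave 4 falls among 11 tested. Car1 lay at -0.93 and -0.25 against 4.30, 5.22 and 4.61, a 39.4-fold fall, and Car2 fell 8.53-fold.

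Enzymes that oxidise and conjugate foreign compounds and steroids were lower in the adenomas. Of 39 cytochromes P450 of families listed, 25 were tested, 16 fell and none rose, with a median of -3.45. Cyp2c55, the main colonic member of its subfamily, lay at -5.58 and -5.83 against 1.02, 1.64 and 3.09, a 197-fold fall with 3 of 4 treated arrays measuring it (log2 difference -7.62, SE 0.74, adjusted p = 0.00021). Cyp2s1 lay at -1.88 and -2.93 against 3.64 to 5.32, a 133-fold fall. Cyp2f2 was at least 964-fold lower, although epithelium sample 4 was at -1.63 while samples 1 and 2 were at 4.32 and 4.22. The probes for Cyp2c and Cyp2d members detect close paralogs, which may share signal. Of 42 conjugating enzymes 30 were tested, 16 fell and none rose. The sulfotransferases led. Sult1c2 lay at -3.86 and -3.19 against 3.94, 3.74 and 3.19, a 142-fold fall, and Sult1a1, Sult1b1 and Sult1d1 fell 127-fold, 68.2-fold and 64.4-fold. The glutathione transferases Gsta1 and Gstm1 fell 23.3-fold and 6.41-fold. Leaving out treated sample 1, 8 P450 genes and 9 conjugating enzymes fell, and leaving out treated sample 2, 10 and 16.

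Promoters of colonocyte and detoxification genes are shown for CAAAGTCCA, letters that the nuclear receptor HNF4 binds. Hnf4a, the gene of an intestinal HNF4, lay at 0.33 and 1.33 against 2.66, 3.25 and 2.60, a 4.03-fold fall (adjusted p = 0.026) whose call was lost without treated sample 1 and without epithelium sample 1 or 2. The HNF4 letters occurred in 0.475% of all promoters, in 0.611% of those of tested genes, in 1.60% of those of lower genes and in 0.723% of those of higher genes. Most called members of these classes lacked them. They were held by 2 of 13 absorptive, 2 of 14 P450 and 1 of 15 conjugating genes. Other motifs searched in the same promoters were CTTTGAA, a TCF/LEF variant (5.14% of all promoters), TTTATGG (2.75%), TTTATTG (4.60%) and TGACNNNGC (12.4%). CTTTGAA occurred in 6.21% of promoters of higher genes and in 5.41% of those of lower genes. It was held by 0 of 12 called Wnt targets and 0 of 8 called antimicrobial genes. Among falling classes, 4 of 13 absorptive, 1 of 14 P450 and 2 of 15 conjugating genes held it. The letters CAAAG can belong to the HNF4 and to the TCF/LEF motif.
Alpi, chr1:87101607-87101640, minus strand: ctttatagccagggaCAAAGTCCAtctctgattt
Cyp2c40, chr19:39812836-39812874, minus strand: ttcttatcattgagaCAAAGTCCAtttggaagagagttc
Cyp2c65, chr19:39060875-39060913, plus strand: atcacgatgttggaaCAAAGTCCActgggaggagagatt
The 3 genes were picked from called members of lists without a rise, so each of them had to be a fall. Cyp2c65 fell 139-fold, Cyp2c40 33.6-fold and Alpi (intestinal alkaline phosphatase) 16.3-fold. Treated arrays measured Cyp2c65 in 3 of 4 cases and Alpi in 1. The paralogs Cyp2c40 and Cyp2c65 share descent, and no match was tested as a binding site.

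Goblet cell genes were lower, with 10 falls and no rise among 15 tested and a median of -3.67. Zg16, a lectin of the mucus layer, lay at -4.85 and -2.34 in the adenoma samples and at 6.98, 6.80 and 6.32 in the epithelium samples, a 1257-fold fall (log2 difference -10.30, SE 0.93, adjusted p = 0.00014). Muc2, the gel-forming mucin of the colon, lay at -2.25 and 1.52 against 5.90, 5.41 and 6.28 (log2 difference -6.23, SE 1.00, adjusted p = 0.0031). Clca1, a secreted mucus protease, fell 99.1-fold, Tpsg1, a tryptase, 67.8-fold, Capn9, a calpain, 38.2-fold, and Agr2, a disulfide isomerase needed for mucin folding, 4.93-fold. Spdef, a transcription factor of goblet maturation, fell 20.3-fold, a call lost without treated sample 1. For Muc2, Spdef and Zg16 treated sample 2 was the higher of the adenoma samples. The membrane mucin gene Muc3 lay at -0.76 and 0.42 against 6.76, 6.64 and 5.83, a 95.7-fold fall.

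Enteroendocrine genes gave 14 falls and 1 rise among 22 tested, with a median of -2.98. Gcg, which encodes proglucagon and GLP-1, lay at -7.83 and -5.89 against 3.04, 2.47 and 4.28, an 1114-fold fall (log2 difference -10.12, SE 0.66, adjusted p = 2.2e-05). Insl5, an insulin-like hormone of distal colon L cells, lay at -4.45 and -3.55 against 5.32, 4.73 and 4.14, a 423-fold fall. Tph1, the serotonin-synthesising hydroxylase of enterochromaffin cells, lay at -3.11 and -3.12 against 2.17, 1.32 and 0.66. The granins Chga and Chgb fell 18.2-fold and 73.7-fold, and the hormones Sst (3 of 4 treated arrays) and Cck 34.5-fold and 32.2-fold. The rise was that of Isl1, a LIM homeodomain factor, at 2.45 and 1.73 against -3.20, -1.88 and -4.21 (36.4-fold). Without treated sample 2 the falls numbered 9, and without treated sample 1, 10. Tuft cell markers moved in no shared direction. Trpm5, the taste-type cation channel, fell by 4.81 on the log2 scale, a call lost without treated sample 1, while Avil (advillin) rose by 3.68. Trpm5 was measured on 3 of 4 treated arrays and Avil on 3 of 4 epithelium arrays.

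Other developmental signals were mixed. Over all tested genes 13.6% were called, and the counts of the Eph and position lists were not above that share. Among BMP and TGF-beta genes 7 of 28 tested rose and none fell. Grem1, a secreted BMP antagonist, lay at 1.91 and 1.01 against -5.70, -3.05 and -2.41, and the activin subunit genes Inhba and Inhbb lay at 2.61 and 0.79 against -2.36, -4.22 and -4.21, and at 1.70 and 2.45 against -6.47, -2.57 and -3.66. Id2, Smad7, Tgfb3 and Fst (follistatin) rose 4.09-fold, 3.31-fold, 5.49-fold and 9.14-fold. The epithelium level was measured on 2 of 4 arrays for Grem1 and on 1 for Fst. In this class 1 member rose without treated sample 1, among the calls lost Grem1 and Inhba, and 3 rose without treated sample 2. Without epithelium sample 4 there were 7 rises and 1 fall. In the hedgehog list Ihh, the epithelial ligand, fell 8.42-fold, Hhip, a decoy receptor, fell 7.57-fold (2 of 4 treated arrays), and Dhh was at least 22.6-fold higher. Ihh and Hhip were not called without either treated sample. Notch genes gave 4 rises (Jag2, Notch2, Dll3 and Hey1) and the fall of Spdef among 19 tested. Of the 4 epithelium arrays 2 measured Jag2 and 3 measured Dll3. The rises numbered 2 without treated sample 1 and 1 without treated sample 2. Of 17 Eph receptors and ephrins, Epha7 and Efna5 rose (1 and 3 of 4 epithelium arrays), the call of Epha7 lost without treated sample 1. In the EGF receptor family the ligands Egf and Nrg4 and the receptor Erbb4 fell and the ligand Btc (2 of 4 epithelium arrays) rose among 18 tested, while without either treated sample no member was called. Position and lineage factors gave 2 falls among 18 tested, Hnf4a and Cdx2. Cdx2, the homeobox gene of intestinal identity, lay at -2.96 and -0.26 against 4.25, 2.04 and 5.27, a 44.2-fold fall that was not called without treated sample 1.

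Matrix-degrading enzymes and their inhibitors gave 8 rises and no fall among 21 tested, with a median of 1.92. Mmp10 (stromelysin-2) lay at 4.94 and 4.78 against -0.09, 0.05 and -1.40, a 40.4-fold rise (log2 difference 5.34, SE 0.56, adjusted p = 0.00032). Mmp13 (collagenase-3, 3 of 4 epithelium arrays) rose 76.3-fold with adenoma samples at 3.27 and -0.83, and the inhibitor Timp1 rose 6.28-fold. Without either treated sample 4 members rose, and 1 fell without treated sample 1 or without epithelium sample 4. Matricellular genes went both ways, with 7 rises and 3 falls among 19 tested. Thbs2 rose 31.7-fold and Thbs1 10.9-fold (3 of 4 epithelium arrays), while Thbs4 lay at -3.97 and -1.77 against 6.16, 5.98 and 4.78, a 365-fold fall. Lgals3, the galectin-3 gene of surface colonocytes, fell 6.31-fold. This list gave 2 rises and 2 falls without treated sample 1, 3 and 3 without treated sample 2, and 4 and 2 without epithelium sample 1. Among 21 collagen genes tested 4 rose and 1 fell. Col17a1, a hemidesmosomal collagen of stratified epithelium, lay at -0.77 and 1.62 against -7.11, -2.90 and -7.30, and 1 of 4 epithelium arrays measured it. Without treated sample 2 no collagen gene was called, and without treated sample 1 only 1 rose.

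Keratins went both ways, with 5 rises and 1 fall among 13 tested. Krt17, a keratin of basal and injured epithelia, lay at 2.90 and 4.23 against -2.89, -2.74 and -3.74, a 103-fold rise (log2 difference 6.69, SE 0.54, adjusted p = 7.8e-05). Krt36 rose 53.2-fold (3 of 4 epithelium arrays), Krt23 10.4-fold, Krt14 8.14-fold, and Krt80 was at least 7.56-fold higher. The fall was that of Krt20. Krt19, a simple-epithelium keratin, lay at 5.09 and 5.55 against 6.90, 6.70 and 6.26 and was not called (adjusted p = 0.061). Among 21 tight junction genes, Cldn18, a gastric claudin, rose 27.4-fold (1 of 4 epithelium arrays), while Cldn15 and Cldn8 fell 23.1-fold and 8.85-fold. The list's shares, 4.76% higher and 9.52% lower, were near the 6.6% and 7.05% of all tested genes. The call of Cldn8 was lost without either treated sample and without epithelium sample 1 or 2.

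Inflammatory genes were higher in the treated adenomas. Of 19 inflammatory cytokine and acute-phase genes tested 9 rose and none fell, with a median of 2.56. Without treated sample 2 there were 9 rises and 2 falls, and without epithelium sample 4 there were 7 and 3. Il23a, the p19 subunit of interleukin-23, lay at -1.38 and -1.07 and was not well above background on any epithelium array, at least 73.1-fold lower there (adjusted p = 6.1e-05). Il22 lay at -1.50 and -4.01 and Il6 at -0.48 and -4.43, with treated sample 1 the higher for both, and rose 33.8-fold and 37.0-fold. Hp (haptoglobin) lay at 2.52 and 4.05 against -7.50, -2.71 and -7.42, a 572-fold rise. For Il22, Il6 and Hp 1 of 4 epithelium arrays measured the level. In the interleukin-1 family 6 of 15 tested rose. Il1b lay at 2.44 and 3.19 against -1.99, -3.65 and -4.71, a 76.8-fold rise (log2 difference 6.26, SE 0.81, adjusted p = 0.00095). Il1rl1, the receptor of Il33, rose 42.8-fold. Without treated sample 2 the family gave 3 rises, and without epithelium sample 4 it gave 6 rises and 3 falls.

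Among 36 chemokines and receptors tested 11 rose and 3 fell. The rises included ligands of the neutrophil receptor Cxcr2. Cxcl5 lay at 3.83 and 2.55 against -7.58, -3.29 and -4.71, a 334-fold rise, and Cxcl1 and Cxcl2 rose 239-fold and 37.8-fold. Ccl3 and Ccl2, which attract monocytes, rose 73.6-fold and 37.3-fold. Of the epithelium arrays 2 of 4 measured Cxcl5 and 1 of 4 measured Cxcl1, Cxcl2 and Ccl3. The falls were Ccl28, an epithelial chemokine for IgA plasma cells (68.6-fold, 3 of 4 treated arrays), Cxcr3 and Cxcl12. Without either treated sample the list gave 7 rises and 1 fall, and without epithelium sample 4 it gave 12 rises and 7 falls.

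Markers of neutrophils rose beside these genes. Of 18 listed 14 were tested, 11 rose and none fell, with a median of 4.01. Members dark in the epithelium were tested through the adenoma alone and could hardly fall, and as few as 2 members rose under an alternative setting. S100a9, a subunit of calprotectin, lay at 3.73 and 5.20 against -7.38, -5.17 and -5.90, a 1574-fold rise with 1 of 4 epithelium arrays measuring it (log2 difference 10.62, SE 1.40, adjusted p = 0.0011). S100a8, its partner, was at least 579-fold higher. Retnlg lay at -1.67 and -0.45 and was not well above background on any epithelium array, at least 94.2-fold lower there, and Mmp8, the neutrophil collagenase, rose 29.5-fold (1 of 4 epithelium arrays). The other S100 calls were falls of S100a1, S100a13, S100a16 and S100b (3 of 4 treated arrays), none of them called without treated sample 1. The granule gene Mpo lay at -4.57 and -3.52 against -3.88, -3.64 and -4.72 and was not called. The summed level of the list was 4.25 and 5.95 in the adenoma samples and -1.70 to -0.15 in the epithelium. Treated sample 2 was the higher of the adenoma samples, and without it 6 members rose. The part of these cells in the cytokine, chemokine and Lcn2 values was not tested.

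Markers of other cell types were counted in the same way. Over all tested genes 13.6% were called, and the counts of the T cell, macrophage, endothelial and smooth muscle lists were not above that share. Plasma and B cell genes fell in 7 of 10 tested, with summed levels of 2.93 to 4.08 in the adenoma and 5.50 to 6.36 in the epithelium. Without treated sample 1 there were 4 falls, and without treated sample 2 there were 5 falls and 1 rise. Jchain, the joining chain of IgA, lay at -6.32 and -5.41 against 4.16 to 5.09, a 1462-fold fall (2 of 4 treated arrays), and Tnfrsf17 (BCMA) was at least 513-fold lower. Red blood cell genes fell in 2 of 3 tested, with summed levels of -1.74 to -1.52 against 2.43 to 3.51. Hba-a1 lay at -2.65 and -2.19 against 2.49, 2.02 and 3.40, a call lost without either treated sample. Among 15 smooth muscle genes Cnn1 and Lmod1 fell 11.7-fold and 10.2-fold, with summed levels of 5.58 to 5.73 against 6.34 to 6.79. Among 15 fibroblast genes Mfap5 and Fap (3 of 4 treated arrays) fell and Vim rose, the call of Vim lost without treated sample 2, with summed levels of 7.37 to 8.03 against 6.89 to 7.54. Of 20 macrophage and dendritic cell genes the scavenger receptor gene Cd163 alone was called, with a 38.9-fold fall (1 of 4 treated arrays), and of 17 T and cytotoxic cell genes Gzmb (1 of 4 epithelium arrays) rose and Nkg7 fell, neither of them called without treated sample 1. For mast cells Hdc, the histamine-forming decarboxylase, rose 107-fold (3 of 4 epithelium arrays) and Kit fell 4.55-fold, and neither was called without treated sample 1. Of 15 endothelial genes Cdh5 alone rose, at an adjusted p of 0.046 and lost under 17 of the alternative settings. Eosinophil genes gave the falls of Prg2, at least 56.8-fold, and Rnase2b, whose call was lost without treated sample 2 and without epithelium sample 2 or 4. The part of any of these cells in the differences of other lists was not tested.

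The pathways of the drugs were read next. Prostaglandin genes went both ways, with 4 rises and 4 falls among 18 tested. Ptgs2, the inducible cyclooxygenase that sulindac inhibits as an enzyme, lay at 0.71 and -2.51 in the adenoma samples and at -4.68, -6.23 and -6.69 in the epithelium samples, 3 of whose 4 arrays measured it (log2 difference 4.96, SE 1.20, adjusted p = 0.023). Both adenoma samples were above the epithelium but far from each other, and the call was lost without treated sample 1 and without epithelium sample 2. Abcc4, a prostaglandin exporter, rose 6.74-fold, a call lost without treated sample 1, and Ptgds (3 of 4 epithelium arrays) and Pla2g2a rose. Hpgd, which inactivates prostaglandins, lay at -1.46 and -1.92 against 2.36, 2.59 and 0.58, an 11.6-fold fall (adjusted p = 0.0044). The receptor gene Ptger3 was at least 85.4-fold lower under the main settings, with a log2 difference from -7.41 to -2.63 over the alternatives. Ptges2 and Akr1b3 fell 4.34-fold and 3.12-fold. Without either treated sample the list gave 2 rises and 2 falls.

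Cholesterol synthesis genes gave no rise and 1 fall among 25 tested, where 7.05% of all tested genes fell, with a median of -0.79. That median stayed below 0 over the alternative settings, from -0.86 to -0.36. The falls numbered 5 without epithelium sample 4 and with scan date as a block, and 0 to 11 over all settings. Hmgcs1, an early enzyme of the pathway, lay at 5.37 and 5.40 against 6.33, 6.14 and 5.49 and was not called (log2 difference -0.61, SE 0.47, adjusted p = 0.40). Sqle, squalene epoxidase, lay at 3.95 and 3.93 against 5.23, 5.52 and 4.44 and was not called either (adjusted p = 0.11). Both groups received the statin. Mvk, mevalonate kinase, fell 3.73-fold, a call lost without either treated sample and without epithelium sample 1. In bile acid and sterol efflux, Slc51b, the basolateral bile acid exporter subunit, fell 124-fold, Nr1h4, the bile acid receptor FXR, 38.9-fold, and Nr1h3 (LXR alpha) 4.85-fold. Abca1, a cholesterol exporter, rose from -3.17, -2.48 and -1.65 to 1.57 and 1.38 (log2 difference 3.91, SE 0.54).

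Antioxidant genes known as NRF2 targets were split, with 2 rises and 4 falls among 24 tested. Nqo1, a quinone reductase, lay at -1.83 and -1.50 against 1.24, 1.05 and 1.51, a 7.65-fold fall (adjusted p = 0.0011). Cbr3, a carbonyl reductase, fell 31.0-fold, and Abcc3 and Ces1g fell 10.8-fold and 6.74-fold, the call of Abcc3 lost without treated sample 1. Slc7a11, the cystine importer, and Abcc2, a conjugate exporter, rose 57.8-fold and 68.5-fold, Abcc2 measured on 1 of 4 epithelium arrays. The list gave 1 rise and 3 falls without treated sample 1, and no rise and 4 falls without treated sample 2. Among zinc and metallothionein genes the zinc transporter Slc30a2 lay at 3.83 and 4.21 against -3.47, -2.66 and -7.08, a 343-fold rise (3 of 4 epithelium arrays). Mt4, a metallothionein of stratified epithelia, lay at 3.29 and 3.48 against -2.83, -2.83 and -4.25, a 103-fold rise.

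Energy genes were lower in part. Glycolysis genes were not called lower more often than others, with 6.90% called higher and 3.45% lower, where 6.6% and 7.05% of all tested genes were. Their median was -0.45 and stayed below 0 over the alternative settings, from -0.99 to -0.10. Of 31 fatty acid oxidation and PPAR genes tested 8 fell, among them Pparg (5.53-fold), Acaa2 (4.03-fold) and Hao2. The falls numbered 3 without either treated sample, 4 without epithelium sample 2 and 15 without epithelium sample 4. Of 39 respiratory chain genes 12.8% were called, all of them falls, where 13.6% of all tested genes were called and 7.05% were falls. The list's median was -0.78 and its count of falls was 5 (Sdhb, Atp5g1, Sdhc, Ndufb8 and Cyc1). That count was 0 without treated sample 1 or epithelium sample 1, 1 without epithelium sample 2, 2 without treated sample 2 and 9 without epithelium sample 4. Glycolysis genes gave 2 rises (Pfkfb3 and Slc16a3) and 1 fall (Hk1) among 29, and none was called without either treated sample.

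Genes of division and of ribosomes did not pass the test. Of 40 DNA replication and mitosis genes none was called, with a median of 0.20, and Mki67, the Ki-67 gene, lay at 4.21 and 4.32 against 4.60, 3.73 and 4.75 (log2 difference -0.09, SE 0.50). None of 44 ribosomal protein genes, 26 ribosome biogenesis genes or 25 unfolded protein response genes was called, and their medians were -0.14, 0.20 and -0.38. At limma's unadjusted p under 0.05 there were 3 cell cycle genes, all higher, 4 ribosomal protein genes, all lower, 4 biogenesis genes and 1 unfolded protein response gene. Over the alternative settings, the authors' value table and other normalisations among them, between 0 and 8 cell cycle genes were called higher and between 0 and 8 ribosomal protein genes lower. Among checkpoint genes Cdkn1c, the p57 inhibitor, rose 12.4-fold, a call lost without either treated sample and without epithelium sample 2, while Cdkn1a (p21) lay at 1.91 and 2.51 against 4.63, 5.17 and 2.57 and was not called (adjusted p = 0.11). Of 18 Bcl2 family genes Bmf alone rose, at an adjusted p of 0.048 and lost under 16 of the alternative settings. Immediate early genes gave 5 rises and 1 fall among 24. Jun rose 8.58-fold, and Klf4, a factor of differentiated surface cells, fell 6.52-fold, calls lost without treated sample 1 and without treated sample 2, respectively. The list gave 1 rise without treated sample 1, 2 without treated sample 2 and 3 without epithelium sample 1.

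Antigen presentation differed between the array pairs of 2 scan dates, in which date and sample cannot be told apart. MHC class I genes gave 7 falls among 19 tested with a median of -1.58, but the median was -2.44 between the arrays of date 2 and -0.16 between those of date 4. The falls numbered 0 without treated sample 1 or epithelium sample 2, 1 without epithelium sample 1, 4 without treated sample 2 and 11 without epithelium sample 4. Class II genes gave 1 fall (Ifi30) among 11, with medians of -3.25 and 0.24 on those dates. Interferon-stimulated genes gave 1 rise and 2 falls among 25, with medians of -1.35 and 1.24. Neither count was above the 13.6% called over all tested genes. Of the 6 scan dates only dates 2 and 4 held both groups. Date 2 paired treated array 1 with epithelium array 3, and date 4 paired treated array 2 with epithelium array 4. All 2323 called genes had the sign of the fit on date 4, as did all 2309 with a value on date 2, but those arrays also entered the fit. A fit of the separate arrays that took scan date as a block called 5627 genes.

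**Figure D4:**
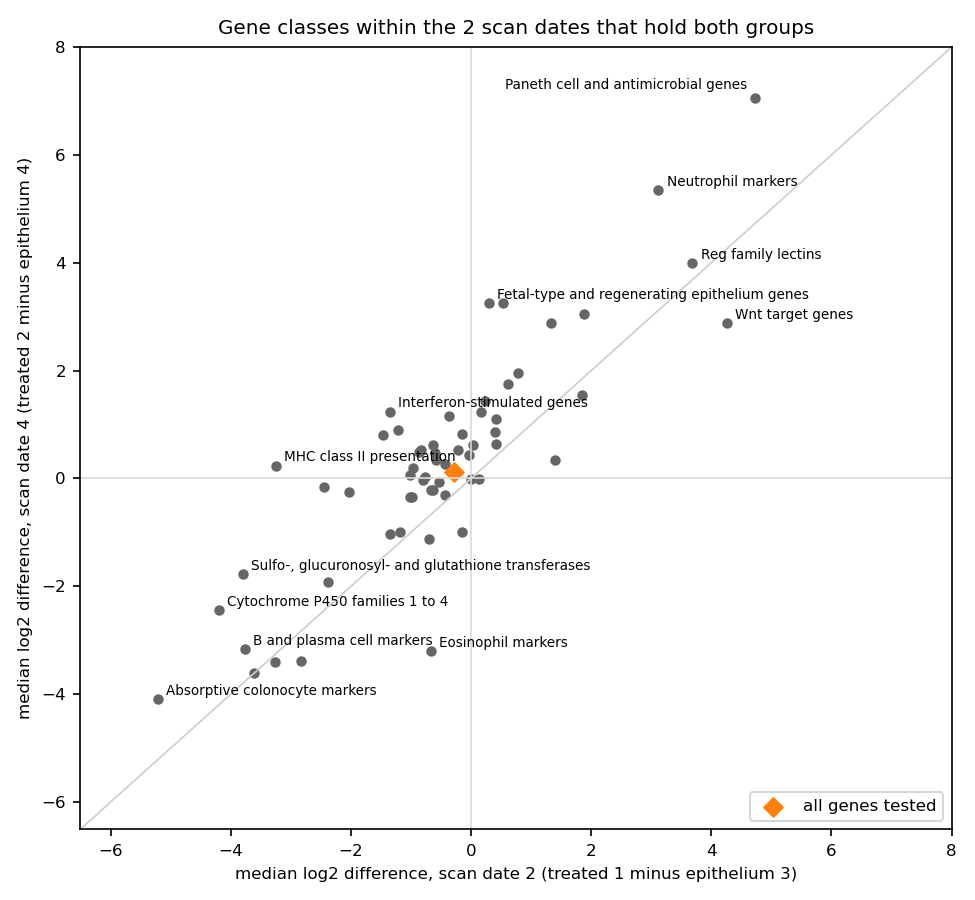
Each point is 1 gene list, with its median log2 difference (treated adenoma minus tumor-bearing epithelium) between the arrays of scan date 2 on the horizontal axis and between those of scan date 4 on the vertical axis. Wnt target, neutrophil and antimicrobial lists lie high on both dates and absorptive, goblet and cytochrome P450 lists low on both, while the interferon-stimulated and MHC class II lists change sign.

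Untreated adenomas were set beside the treated ones to show where the difference from epithelium was not the same for both kinds of adenoma. The untreated adenomas came from mice that received neither drug, so their comparison with the same epithelium also differs by atorvastatin. Against that epithelium 2084 of 17434 genes were called (12.0%). Because both comparisons share the epithelium samples, their difference was tested as treated against untreated adenoma, which called 39 of 17659 genes (0.221%), 21 higher and 18 lower. Of these, 30 were also among the 2323. The Wnt list gave 18 rises of 29 for untreated adenomas as well (median 3.05), and the neutrophil list 11 of 14 (median 4.52). Goblet genes gave 6 falls of 15 with a median of -0.80, and absorptive genes 11 of 20 with a median of -3.09. Cell cycle genes gave 4 rises of 40 with a median of 0.98. These counts do not test a difference between the adenoma groups. In the direct test of treated against untreated adenoma, 1 of 14 goblet and 1 of 18 absorptive genes were called. Of 40 cell cycle, 30 Wnt and 14 neutrophil genes 0 were called there.

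**Figure D5:**
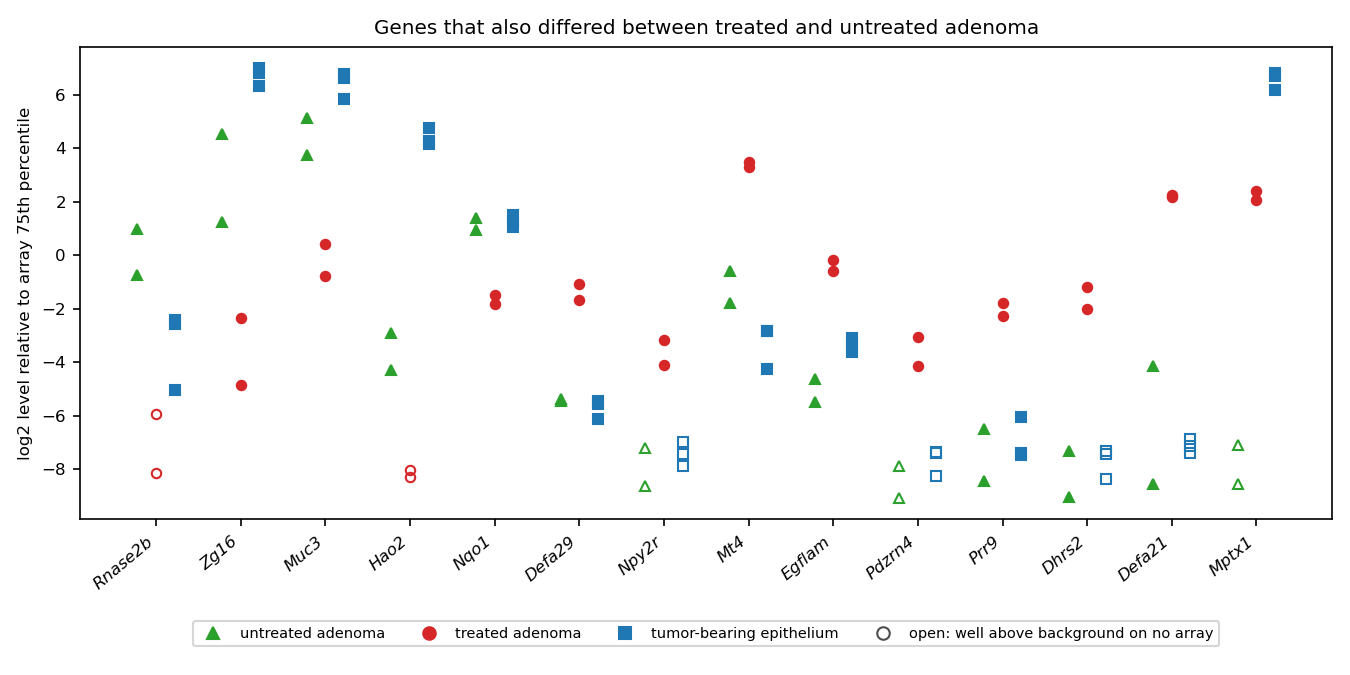
Levels (log2, relative to the array's 75th percentile) of 14 genes that differed between treated adenoma and epithelium and between treated and untreated adenoma, with 1 point for each untreated adenoma, treated adenoma and tumor-bearing epithelium sample. Zg16, Muc3, Hao2 and Nqo1 are lowest in the treated adenomas, whereas Mptx1 lies in the treated adenomas between the untreated adenomas and the epithelium.

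Mptx1, a mucosal pentraxin of colonocytes and goblet cells, was 1 of these genes. It lay at -8.55 and -7.10 in the 2 untreated adenoma samples, not well above background on any of their arrays, at 2.38 and 2.07 in the treated adenomas, and at 6.80, 6.70 and 6.16 in the epithelium. It was thus 20.0-fold lower than epithelium in the treated adenomas but at least 1049-fold higher than in untreated ones (adjusted p = 9.0e-05 for treated against untreated). Zg16 lay at 4.51 and 1.25 in untreated adenomas, 89.3-fold above the treated ones, and Muc3 at 5.12 and 3.74, 24.3-fold above them. Nqo1 lay at 0.93 and 1.38 in untreated adenomas, a 7.06-fold difference from the treated ones, and its difference from the epithelium was -0.12 (adjusted p = 0.87). Hao2 lay at -2.90 and -4.30, at least 23.6-fold above the treated ones. Mt4 lay at -0.61 and -1.81 and was 24.1-fold higher with treatment. Defa21 lay at -8.54 and -4.16 and Defa29 at -5.37 and -5.46, and both were higher in the treated adenomas (adjusted p = 0.024 and 0.027), where they lay at 2.25 and 2.17 and at -1.08 and -1.67. Of the 3 untreated arrays 1 measured Defa21. The 39 calls between treated and untreated adenomas became 1 without treated sample 1 and 72 without epithelium sample 4, which enters only the shared spread, and all 39 genes kept their sign in both cases.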

How the data were processed

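Colon tissue of Apc+/Min-FCCC mice was measured on single-colour Agilent arrays. The deposited scanner files hold processed signal intensity in linear units, background-subtracted by Feature Extraction 9.5.3 per the file headers. The authors' deposited value table holds log2 values whose centring the sources used here do not state. Its 4 tumor-bearing epithelium columns matched that group's scanner files in reverse order, so it served only as an alternative. Control spots and outlier-flagged spots were removed, log2 intensity was set relative to the array's 75th percentile, and 41174 probes were reduced to 27790 features by the probe with the highest mean. Different probes of a gene can disagree, and their mean was an alternative. Probes were named through RefSeq for 22944 by accession, 6664 by symbol and 3108 by synonym, 1796 kept the file's name and 6662 had none.

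Near-identical arrays of a group (SD of the log2 difference under the spot noise) were averaged. limma 3.58.1 in R 4.3.3 (lmFit, eBayes) fitted the 10 samples of all 4 groups, two-sided, with Benjamini-Hochberg adjustment over all genes tested at 0.05, and every adjusted p given is from it. "At least" folds set the bright group's mean against the higher of each dim array's lowest well-above-background signal and the probe's own. They compare group means under the main settings, so single samples and alternative settings can differ by less. The script was tested on simulated data.

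Members and gene lists were chosen with earlier results of these data known, so list counts support nothing independently. Named genes were the 10 highest rises and 10 deepest falls measured in both groups, the 6 highest and 6 lowest bounds, the 3 members of each list with a call that had the largest absolute moderated t (1 in a list with none), 22 fixed genes, and up to 10 genes also called between treated and untreated adenoma. Some genes that the rule names and 1 searched motif are not reported here. Other list members named were chosen after their values were seen. Alternatives changed the background, scaling, probe filter, probe choice, samples fitted, weights, blocks and arrays left out.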

Additional observations from a re-analysis of the deposited data

Results flagged for a closer look

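For 14 named genes the difference between adenoma and tumor-bearing epithelium was not the same for treated and untreated adenomas, by limma's test of treated minus untreated adenoma. The epithelium samples cancel in that test. The log2 difference was 4.59 for Mt4 and 4.04 for Defa29, both higher in the treated adenomas, and -6.48 for Zg16, -4.60 for Muc3 and -2.82 for Nqo1, all lower there. These 5 genes were well above background on every array of both adenoma groups. The differences of 8.56 for Defa21, 6.58 for Dhrs2 and 5.44 for Prr9 are set against untreated adenomas in which 1 of 3 arrays measured the gene, and that of 4.67 for Egflam against 2 of 3. For Mptx1, Pdzrn4 and Npy2r no untreated array was well above background, so the fitted values of 10.05, 4.88 and 4.28 are not measured sizes, and the genes were at least 1049-fold, 29.4-fold and 18.8-fold higher with treatment. For Rnase2b and Hao2 no treated array was well above background, and with fitted values of -7.16 and -4.56 they were at least 143-fold and 23.6-fold lower with treatment. Adjusted p ranged from 9.0e-05 for Mptx1 to 0.040 for Zg16. Rnase2b, an eosinophil-type ribonuclease gene, lay at -0.75 and 0.99 in untreated adenomas and was not well above background on any treated array. Without treated sample 1 limma called 1 gene in this test, and all 39 genes called with it kept their sign.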

How the results depend on the processing

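Of 190 named genes tested 156 were called, and 92 of these were called under all alternatives that gave a value. Without treated sample 1, 46 of the 156 calls were lost, without treated sample 2 35, and without the array pair shared by both epithelium groups 20. Btc, Cyc1, Cdh5 and Bmf lost their calls most often. The 2323 genes called became 7339 with each array as its own sample, 1453 with only the 2 groups fitted, 4799 with array quality weights, 6722 with slide as a random block, 5627 with scan date as a fixed block and 1192 without treated arrays 2, 3 and 4. Leaving out 1 array at a time gave 897 (without treated array 1) to 4002 (without epithelium array 4, 38.1% of them higher, against 48.3%). With probes well above background in both groups 1551 were called, 37.8% of them higher. The replicate numbers do not pair the samples: correlations of same-numbered treated and epithelium arrays were 0.03, 0.13, -0.08 and -0.04. With the replicate block on separate arrays 7418 genes were called. Separate arrays count near-identical arrays as independent. The 39 genes between treated and untreated adenoma became 2460 with separate arrays, 2587 with slide, 2503 with scan date, 2637 with the replicate block, 64 with weights, 1 with only the 2 groups fitted, 1 with probes well above background in both groups, 3 without the shared pair, and 4, 2, 8 and 9 without the averaged untreated, treated, tumor-free and tumor-bearing arrays. Without single arrays they ranged from 1 to 72. No other alternative moved either count by over 1.5 times, and keeping flagged spots, added after the data were seen, gave 2265. Of the 2323 called genes 2322 kept their sign in the authors' table and with flagged spots kept, and 2321 with the mean over all probes. Among the named genes only uncalled ones changed sign. Cdh1 was 0.44 under quantile normalisation, 0.0090 under median scaling, 0.47 in the authors' table, 0.055 with slide, 0.13 with scan date, 0.055 and 0.085 without the averaged treated and epithelium arrays and 0.13 without the shared pair. Leaving out 1 array at a time it ranged from -0.33 to 0.13, Epcam from -0.31 to 0.23 and Mki67 from -0.41 to 0.10. Epcam was -0.14 with separate arrays and with the replicate block and -0.31 with weights. Hmgcs1 was 0.43 over all probes. Mki67 was 0.31 under quantile normalisation, 0.26 in the authors' table, 0.12 over all probes, 0.34 with weights and 0.025 without the averaged epithelium arrays. The causes were not tested.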

Other observations

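Mcpt2, a mucosal mast cell protease, was well above background on all untreated adenoma arrays, at -3.00 and -3.66 per sample, on no treated adenoma array and on 1 of 4 tumor-bearing epithelium arrays, so it was not tested between those. Against untreated adenomas it was at least 34.8-fold lower in treated ones (log2 difference -5.14, SE 0.56, limma adjusted p = 0.011). Iglv1, an immunoglobulin light chain variable gene outside the plasma cell list, lay at -4.69 and -5.48 in the treated adenomas and at 6.34, 5.19 and 6.01 in the epithelium, a 1946-fold fall (well above background on 3 of 4 treated arrays).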
